A study of Mus musculus with 6 samples.

Results

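The transcripts of 10 genes of the transforming growth factor beta (TGF-beta) pathway were examined in haematopoietic stem cells (HSCs) of the mouse, the source of all blood cells in bone marrow. The genes encode a ligand (Tgfb1), 3 receptors (Tgfbr1, Tgfbr2 and Tgfbr3), 4 Smad proteins (Smad2, Smad3, Smad4 and Smad7) and the co-repressors Ski and Skil. They were chosen by symbol among the 49585 Ensembl genes of each count table, all 10 were found, and all 10 passed the filter on low counts that kept 14785 genes for testing. RNA was sequenced from 6 libraries, 3 of CD38-positive and 3 of CD38-negative HSCs, which the design text matches in 3 pairs. CD38 is a surface enzyme that consumes NAD, and the series asks how it relates to HSC dormancy. Both populations came from untreated C57BL/6 mice aged 8 to 16 weeks, and each library pooled the cells of 10 mice. The sort kept Kit+ and Sca-1+ cells that lacked lineage markers, CD48 and CD34 and carried CD150 and CD201, and then split them by high or low surface CD38. The sources do not say whether paired libraries share animals, so the tests measure the spread between these pools.

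TGF-beta is secreted as a latent complex and has to be released before it can signal. The active ligand brings the type II receptor (Tgfbr2) and the type I receptor (Tgfbr1) together, the type I receptor phosphorylates Smad2 and Smad3, and these enter the nucleus with the shared partner Smad4. Smad7 blocks the receptor step, while Ski and Skil repress Smad target genes. In bone marrow the pathway is known for keeping HSCs in quiescence.

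Total gene counts ranged from 16771180 to 18558610 per library. Before scaling, 3 counts thus correspond to 0.162 to 0.179 CPM (counts per 1000000 reads counted in genes). All CPM values that follow were scaled between libraries by the TMM method. Cd38 itself ranged from 36.99 to 58.3 CPM in CD38-positive and from 23.9 to 35.6 CPM in CD38-negative libraries (edgeR adjusted p = 0.893), with no overlap. The 7 stem cell markers examined (Kit, Ly6a, Slamf1, Procr, Hlf, Mecom and Meis1) were detected in every library. Summed, they were at 434, 467 and 835 CPM in CD38-positive replicates 1, 2 and 3, and at 603, 1383 and 771 CPM in their CD38-negative partners. By fitted log2 fold change, CD38-positive over CD38-negative, 6 of the 7 were negative and 1, Slamf1, was positive, with a median of -0.54. None passed an adjusted p-value of 0.05 in edgeR. At an unadjusted p under 0.05, 4 were lower (Kit, Ly6a, Hlf and Meis1), where 2.61% of all tested genes were. Transcripts known as markers of other cell types were also detected, and whether they came from other cells was not tested. The 14 granulocyte and monocyte markers took 8.24% to 15.9% of all counts, and Cd34, whose protein the sort selected against, had 3652 to 5138 reads per library. In bulk RNA of this kind, fewer cells of a type and less RNA per cell cannot be told apart.

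No gene of the 10 passed an adjusted p-value of 0.05 between the populations in edgeR's quasi-likelihood test with the pair as a block, where 0.0135% of all tested genes did (2 of 14785). At an unadjusted p under 0.05 there was 1 gene, Tgfbr1, lower in CD38-positive cells, against a background of 5.08% of tested genes in either direction and 2.61% in this one; DESeq2 with the same block likewise called 0 of the 10 after adjustment. The fitted log2 fold change, CD38-positive over CD38-negative, was negative for 9 of the 10 genes, as it was for 49.9% of all tested genes. Its median over the 10 genes was -0.31, and that of all tested genes was 0.00. Lower values in CD38-positive cells in all 3 pairs were found for 4 genes (Tgfb1, Tgfbr1, Tgfbr3 and Ski), against 11.3% of tested genes. The direction came mainly from pair 2. Without that pair Tgfbr2, Smad3, Smad4, Smad7 and Skil had positive values and Smad2 a negative one. Tgfb1, in contrast, had differences of similar size, at -0.42, -0.60 and -0.57 in pairs 1, 2 and 3. The median difference of the 10 genes was -0.08, -0.84 and 0.00 in pairs 1, 2 and 3, and all 10 had their largest difference in pair 2, as did 52.0% of all tested genes. The CD38-positive library of pair 2 also stood apart in its make-up, with 1.44% of its counts from mitochondrial genes against 2.69% to 4.43% in the other 5, and with the lowest shares of granulocyte and monocyte markers (8.24%) and of B and plasma cell markers (0.0332%). The 9 B and plasma cell markers were lower in CD38-positive libraries when summed, at 1029, 323 and 546 CPM in replicates 1, 2 and 3 against 1802, 1182 and 3523 CPM in their partners, without overlap. Of these 9, 7 had negative log2 fold changes, and the antibody gene Igha was the 1 that passed (-4.40, edgeR adjusted p = 0.00246), while Jchain was at -4.26 (edgeR adjusted p = 0.0701) and Igkc at -3.07 (0.125). The part of these differences between libraries in the values of the 10 genes was not tested.

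**Figure D1:**
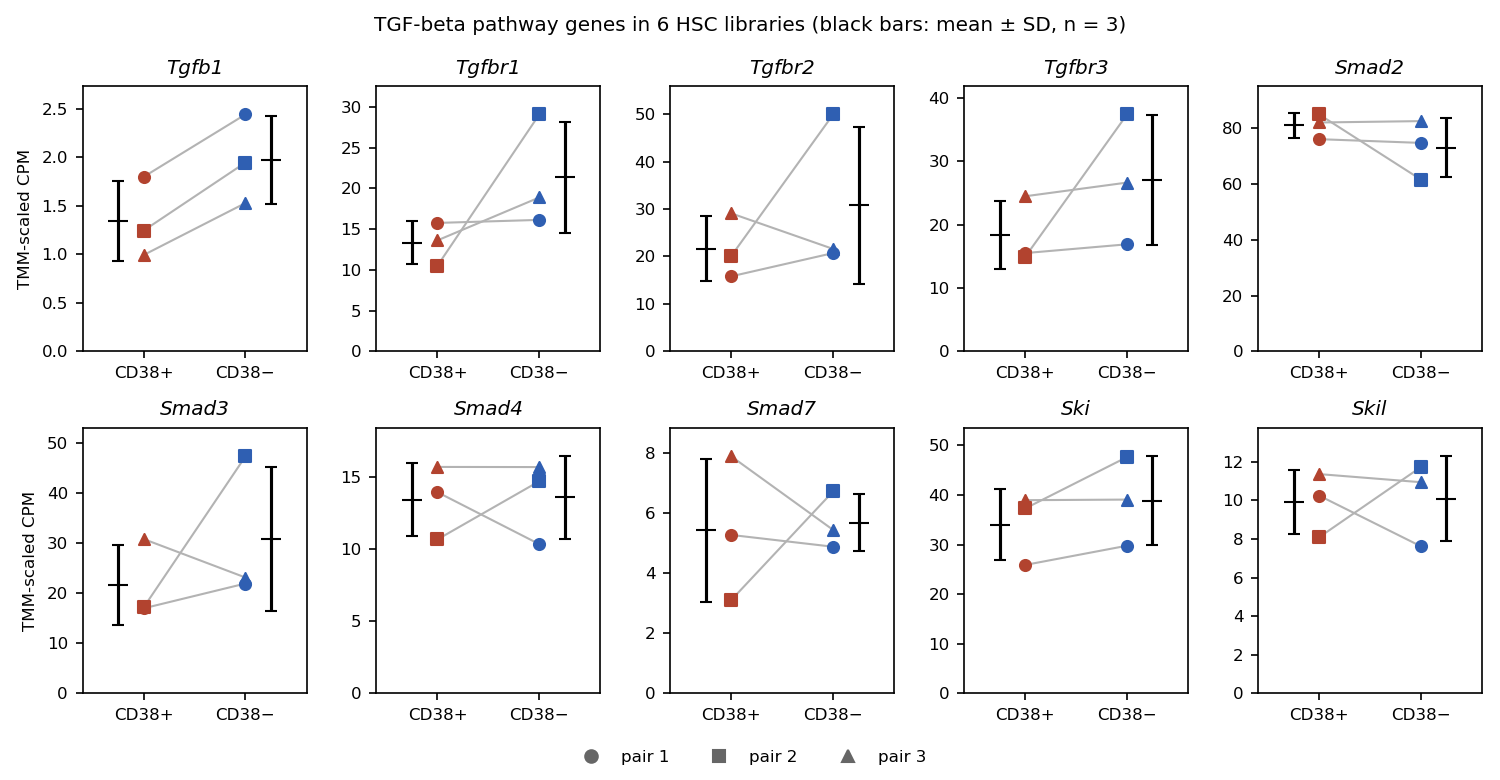
TMM-scaled CPM of the 10 TGF-beta pathway genes in CD38-positive (red) and CD38-negative (blue) libraries, with grey lines joining the libraries of a pair and black bars for the mean ± SD of 3 libraries. Tgfbr1 is the 1 gene whose groups do not overlap, and the CD38-negative library of pair 2 is the highest for Tgfbr1, Tgfbr2, Tgfbr3, Smad3, Ski and Skil.

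The ligand gave the lowest counted level of the 10 genes per kilobase. Tgfb1 (ENSMUSG00000002603, GRCm38 chromosome 7, 25687002 to 25705077, plus strand), which encodes TGF-beta 1, was covered by few reads: 30, 22 and 18 for CD38-positive replicates 1, 2 and 3, and 41, 35 and 25 for their CD38-negative partners. In CPM these were 1.80, 1.24 and 0.993 against 2.44, 1.95 and 1.53. Each CD38-positive library was below its partner, by 0.42, 0.60 and 0.57 on the log2 scale, although the ranges of the groups overlapped. The counting error at this depth was wide: the 18 reads of CD38-positive replicate 3 have an exact 95% Poisson interval of 10.7 to 28.4 reads, and the 25 reads of its partner one of 16.2 to 36.9. Such intervals cover counting error only. The strand setting and annotation behind the counts are not given in the sources used here, and whether they lower the count of Tgfb1 was not tested, so its place below the other genes is that of the reads as counted. In the fit, Tgfb1 had a log2 fold change of -0.56 with a 95% interval from -1.51 to 0.38 (SE 0.44, adjusted p = 0.932 in edgeR).

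Of the receptors, the type I receptor gave the smallest p-value of the 10 genes. Tgfbr1 (ENSMUSG00000007613, chromosome 4, 47353222 to 47414931, plus strand), the kinase that phosphorylates Smad2 and Smad3, was at 15.8, 10.5 and 13.6 CPM in CD38-positive replicates 1, 2 and 3. It was at 16.1, 29.1 and 18.9 CPM in their CD38-negative partners. Every CD38-negative library was therefore above every CD38-positive one, which held for 3.19% of tested genes in this direction. In pair 1, however, the libraries were nearly level, with a difference of -0.03 on the log2 scale, against -1.46 in pair 2 and -0.47 in pair 3. The log2 fold change was -0.65 (SE 0.29), with a 95% interval from -1.27 to -0.04. Its unadjusted p-value in edgeR's quasi-likelihood test was 0.0379, and the adjusted p-value was 0.926. Without pair 2 the log2 fold change was -0.27.

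Tgfbr2 (ENSMUSG00000032440, chromosome 9, 116084293 to 116175360, minus strand), the ligand-binding type II kinase, was at 15.8, 20.1 and 29.1 CPM in the CD38-positive libraries and at 20.7, 49.9 and 21.6 CPM in their partners. The CD38-negative library of pair 2 stood above the other 5, at 2.41 times their median, and pair 3 had the opposite direction to pairs 1 and 2. The log2 fold change of -0.42 (SE 0.29, adjusted p = 0.930 in edgeR) became 0.01 without pair 2. Tgfbr3 (ENSMUSG00000029287, chromosome 5, 107106570 to 107289629, minus strand), known as betaglycan, is a co-receptor that presents ligand to the kinases. It was at 15.5, 14.9 and 24.5 CPM in CD38-positive replicates 1, 2 and 3, and at 16.9, 37.4 and 26.7 CPM in their partners. Again the CD38-negative library of pair 2 was the highest, and differences in the other pairs were -0.12 and -0.12. The log2 fold change was -0.52 (SE 0.27, adjusted p = 0.926 in edgeR), and -0.14 without pair 2. The annotation places 4 other genes over the Tgfbr3 locus, with 36 reads in all 6 libraries together against 2360 for Tgfbr3.

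The stretches upstream of Tgfbr1, Tgfbr2 and Smad3 are shown, taken from RefSeq promoter windows. Levels of these genes and of Tgfbr3 peaked in the same library, the CD38-negative one of pair 2, as did those of Ski and Skil. Windows were found for 5 of the 10 genes (Tgfb1, Tgfbr1, Tgfbr2, Smad3 and Ski), with 2 start sites for Tgfbr1. The 250 bases before the RefSeq start (GRCm38.p6) are printed 5′ to 3′ on the strand of the gene. They lie at chr4:47352972-47353221 (plus strand) for the first start of Tgfbr1, at chr9:116175364-116175613 (minus strand) for Tgfbr2 and at chr9:63757995-63758244 (minus strand) for Smad3. Capitals mark the GC box GGGCGG and the Smad box CAGAC, searched on both strands.
Tgfbr1: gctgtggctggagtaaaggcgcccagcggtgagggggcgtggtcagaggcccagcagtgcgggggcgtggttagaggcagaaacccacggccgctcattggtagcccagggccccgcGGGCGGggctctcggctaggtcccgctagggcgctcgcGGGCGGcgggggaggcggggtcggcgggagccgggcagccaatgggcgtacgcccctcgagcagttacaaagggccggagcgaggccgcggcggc
Tgfbr2: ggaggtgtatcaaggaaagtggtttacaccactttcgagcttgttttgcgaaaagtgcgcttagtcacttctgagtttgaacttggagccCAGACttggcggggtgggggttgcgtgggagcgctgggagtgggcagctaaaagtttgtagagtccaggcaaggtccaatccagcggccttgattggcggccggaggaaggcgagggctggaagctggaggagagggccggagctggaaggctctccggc
Smad3: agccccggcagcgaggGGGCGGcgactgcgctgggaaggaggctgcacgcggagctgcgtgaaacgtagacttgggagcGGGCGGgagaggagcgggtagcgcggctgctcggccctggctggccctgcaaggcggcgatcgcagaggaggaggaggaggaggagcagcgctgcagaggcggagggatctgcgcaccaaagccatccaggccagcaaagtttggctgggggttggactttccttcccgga
The printed windows of Tgfbr1 and Smad3 each held 2 GC boxes and no Smad box, with GC contents of 74.8% and 69.2%. The second start of Tgfbr1 (window chr4:47385966-47386215, plus strand, not printed) differed, with 1 Smad box, no GC box and 52.8% GC. Tgfbr2 held 1 Smad box and no GC box, at 58.4% GC. Ski and Tgfb1, not printed, had 5 GC boxes each. Of 32851 promoter windows of the same length, 32.7% held GGGCGG and 42.2% held CAGAC. The ETS core CCGGAA, the RUNX core TGTGGT and the GATA core AGATAA (12.0%, 14.05% and 9.99% of all windows) were in none of the 6 windows. A match or its absence describes these letters only.

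Among the Smads that receptors phosphorylate, Smad2 was the most abundant and the steadiest transcript of the 10. Smad2 (ENSMUSG00000024563, chromosome 18, 76241580 to 76310963, plus strand) was at 76.0, 84.9 and 82.0 CPM in the CD38-positive libraries and at 74.7, 61.5 and 82.5 CPM in their partners. Its highest library exceeded its lowest by 1.38 times, and here the CD38-negative library of pair 2 was the lowest. Smad2 was the 1 gene of the 10 with a positive log2 fold change, 0.16 (SE 0.19, adjusted p = 0.946 in edgeR), with a 95% interval from -0.25 to 0.57, and it turned to -0.0040 without pair 2. Smad3 (ENSMUSG00000032402, chromosome 9, 63646767 to 63757994, minus strand), its close relative that binds DNA directly, was at 17.0, 17.1 and 30.8 CPM in CD38-positive replicates 1, 2 and 3. Their partners were at 21.9, 47.3 and 23.1 CPM. The pattern over libraries was that of Tgfbr2, with the CD38-negative library of pair 2 highest and pair 3 in the opposite direction. The log2 fold change was -0.47 (SE 0.30, adjusted p = 0.929 in edgeR), and 0.01 without pair 2.

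The balance of Smad2 to Smad3 was compared per kilobase of the longest annotated transcript. The ratio of their levels was 2.82, 3.12 and 1.68 in CD38-positive replicates 1, 2 and 3, and 2.14, 0.820 and 2.25 in their partners. Smad2 was thus the higher of the 2 in 5 of 6 libraries, the exception being the CD38-negative library of pair 2. The mean ratio was 2.54 ± 0.760 (SD, n = 3) against 1.74 ± 0.796 (SD, n = 3). Swapping the populations within pairs gave a two-sided exact permutation p of 0.75 for the mean log2 ratio, where 0.25 is the smallest possible. The ratios of Tgfbr2 to Tgfbr1 and of Ski to Skil, the other 2 compared, also gave 0.75 each.

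Smad4 and Smad7 showed no shared direction between pairs. Smad4 (ENSMUSG00000024515, chromosome 18, 73639009 to 73703780, minus strand), the common partner Smad, was at 13.97, 10.7 and 15.7 CPM in the CD38-positive libraries and at 10.4, 14.7 and 15.7 CPM in their partners. It was higher in pair 1 by 0.43 on the log2 scale, at -0.46 in pair 2 and at 0.00 in pair 3, and the log2 fold change was -0.01 (SE 0.26, adjusted p = 0.997 in edgeR). The 95% interval ran from -0.57 to 0.55, so differences of this size were not resolved, and without pair 2 the value was 0.20. Smad7 (ENSMUSG00000025880, chromosome 18, 75367529 to 75395935, plus strand), the inhibitory Smad that is itself a target of the pathway, was at 5.28, 3.11 and 7.89 CPM against 4.88, 6.73 and 5.44 CPM. The CD38-positive libraries held both its highest and its lowest value. For Smad7 the log2 fold change was -0.14 (SE 0.35, adjusted p = 0.970 in edgeR), turning to 0.31 without pair 2.

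The 2 co-repressors differed in abundance more than between populations. Ski (ENSMUSG00000029050, chromosome 4, 155154075 to 155222592, minus strand) was at 25.9, 37.3 and 38.9 CPM in CD38-positive replicates 1, 2 and 3, and at 29.8, 47.6 and 39.1 CPM in their partners. The direction was the same in all 3 pairs, but the difference was 0.00 to 2 decimals in pair 3. The log2 fold change was -0.19 (SE 0.20, adjusted p = 0.943 in edgeR). Skil (ENSMUSG00000027660, chromosome 3, 31095058 to 31122577, plus strand), also called SnoN and induced by TGF-beta, was at 10.3, 8.09 and 11.4 CPM against 7.62, 11.7 and 10.9 CPM. Its ranges overlapped almost fully, and the log2 fold change was -0.02 (SE 0.28, adjusted p = 0.994 in edgeR), or 0.23 without pair 2. Per kilobase, Ski was 3.07 to 5.61 times as abundant as Skil in every library.

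**Figure D2:**
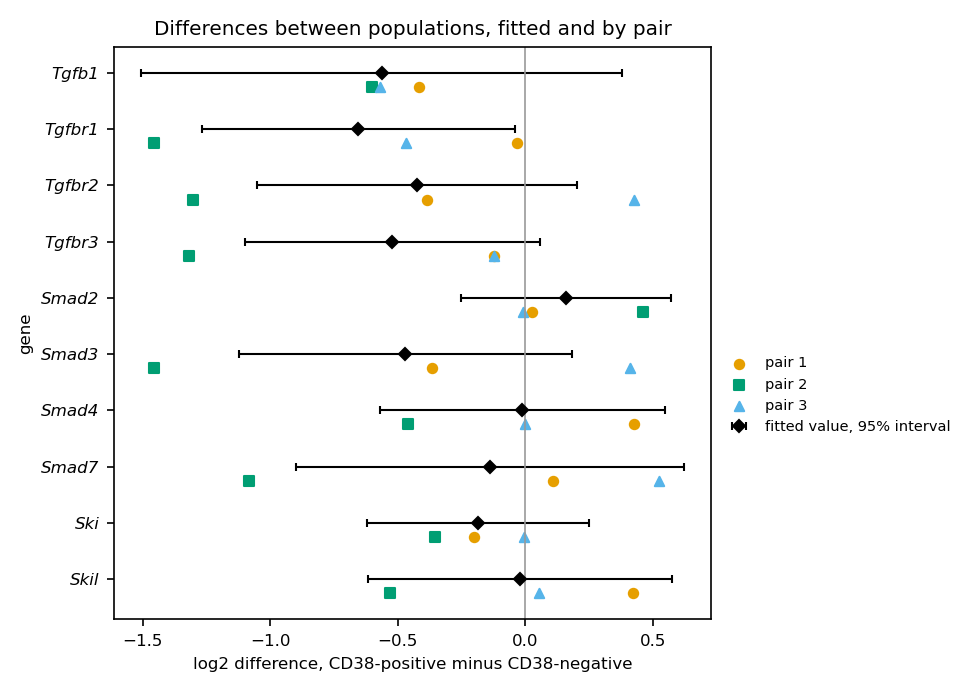
Log2 differences between CD38-positive and CD38-negative libraries for the 10 genes, with the fitted value and its 95% interval (black) and the difference of each pair (coloured). The interval of Tgfbr1, from -1.27 to -0.04, is the 1 that leaves out 0 before adjustment, and pair 2 is the farthest from 0 for every gene.

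Levels of different genes were compared as CPM per kilobase, averaged over the 6 libraries. The order ran from Smad2 (9.51) through Ski (6.598), Smad3 (5.15), Smad4 (3.999), Tgfbr3 (3.72), Tgfbr2 (3.24), Tgfbr1 (3.01), Skil (1.49) and Smad7 (1.30) to Tgfb1 (0.645). Smad2 exceeded 62.0% of all tested genes at this scale, and Tgfb1 exceeded 13.5%. Between neighbours in the order the ranges over libraries overlapped, except for Tgfbr1 over Skil, where every library of the first was above every library of the second. The 3 receptors were not separable: Tgfbr2 was above Tgfbr1 in 3 of 6 libraries, and Tgfbr3 was above Tgfbr2 in 4 of 6. Within every library, Smad7 was above Tgfb1.

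**Figure D3:**
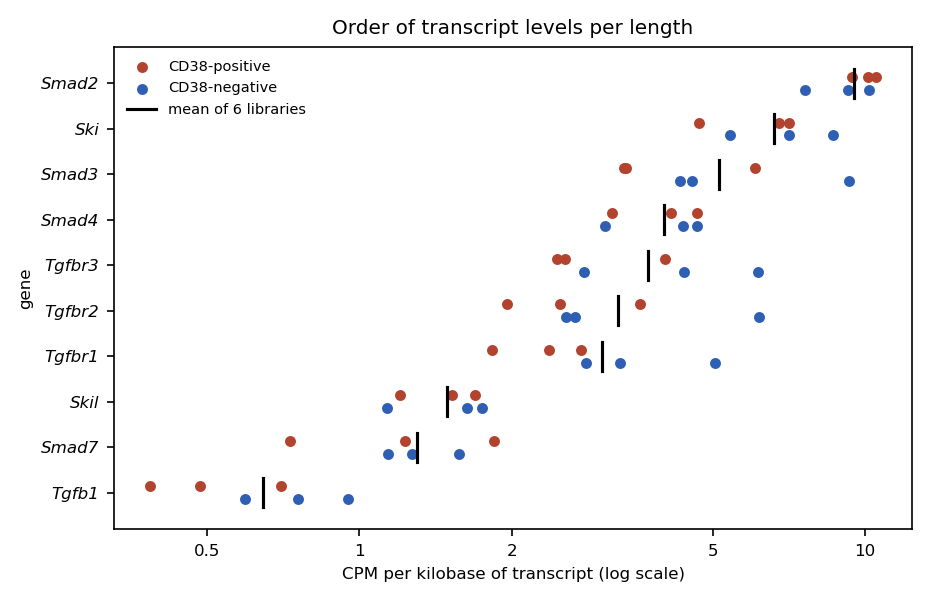
Levels of the 10 genes in CPM per kilobase of the longest transcript, on a log axis, with 1 point per library (red, CD38-positive; blue, CD38-negative) and a black line at the mean of 6 libraries. Smad2 lies highest at a mean of 9.51 and Tgfb1 lowest at 0.645, and a gap parts Tgfbr1 from Skil.

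The genes differed in how far the CD38-negative library of pair 2 stood from the other 5. Tgfbr1, Tgfbr2, Tgfbr3 and Smad3 were at 1.84 to 2.41 times the median of the other 5 libraries in the CD38-negative library of pair 2. Smad4, Smad7, Ski, Skil and Tgfb1 were there at 1.05 to 1.28 times that median and Smad2 at 0.751 times. In all, 6 of the 10 genes had their highest value in that library, as did 20.6% of tested genes. Of the 7 stem cell markers, 5 were highest in the same library, where Kit, the stem cell factor receptor, stood at 556 CPM. In the other 5 libraries Kit was at 110 to 227 CPM. Slamf1 and Procr were instead highest in CD38-positive replicate 3, at 50.4 and 67.5 CPM. In the CD38-negative library of pair 2, Slamf1 was below its mean over libraries (-0.26 on the log2 scale). The summed level of the 7 markers there, 1383 CPM, was the highest of the 6. The granulocyte and monocyte markers took 9.27% of the counts of the CD38-negative library of pair 2. Their share was 12.6% and 13.4% in the other CD38-negative libraries and 8.24% to 15.9% in the CD38-positive ones. The part that the content of stem cell transcripts has in the receptor and Smad3 values was not tested. The summed markers of megakaryocytes and platelets, cells rich in TGF-beta 1 protein, ranged from 147 to 281 CPM in CD38-positive and from 159 to 172 CPM in CD38-negative libraries. Each of the 9 was detected in at least 1 library. Of these 9, 6 had positive and 3 negative log2 fold changes, and none passed. Vwf was at 28.1, 43.6 and 59.9 CPM in the CD38-positive libraries, against 15.8, 24.4 and 17.5 CPM in their partners. It was higher in all 3 pairs, as were 13.2% of all tested genes (log2 fold change 1.15, edgeR adjusted p = 0.293).

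**Figure D4:**
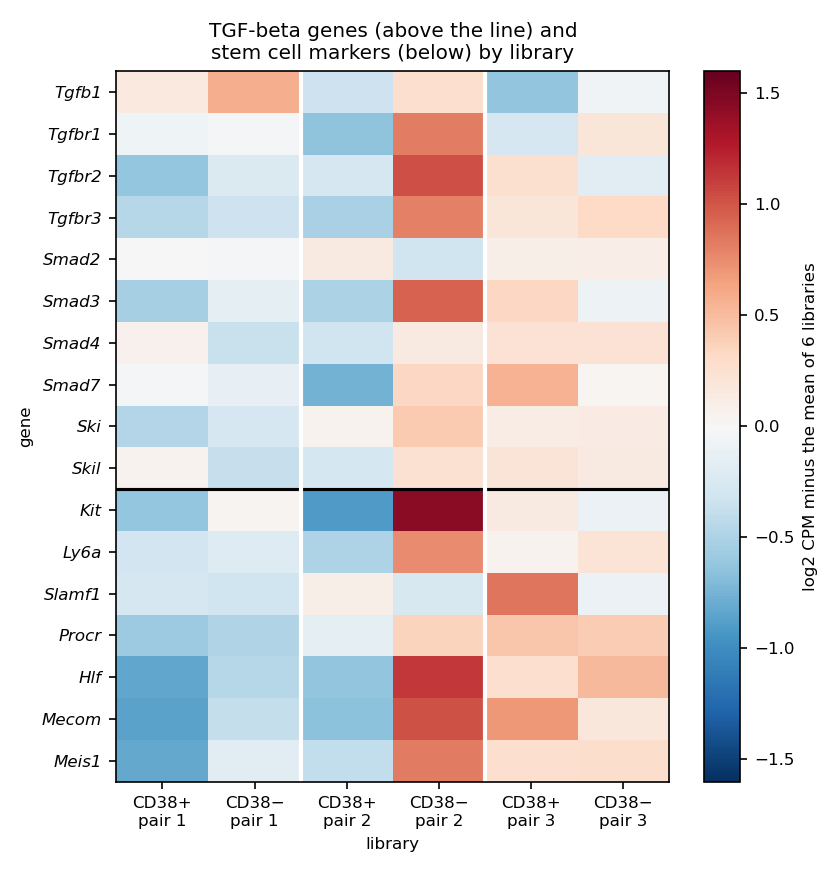
Centred log2 CPM (log2 CPM minus the mean of the 6 libraries) for the 10 TGF-beta genes above the line and 7 stem cell markers below it, with libraries in columns ordered by pair. Red is above and blue below the mean of the gene. The CD38-negative library of pair 2 is red for Tgfbr1, Tgfbr2, Tgfbr3 and Smad3 and for 5 markers that peak there, Kit among them, and blue for Smad2.

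The profile of Tgfbr1 over the 6 libraries was set against the other 14784 tested genes by the root mean square distance of centred log2 CPM, a measure that is 0 for identical profiles. The nearest were Pym1 at 0.0585, Usp6nl at 0.0972 and Rbpj at 0.0998, where the median distance was 0.545. Pym1 encodes a partner of the exon junction complex, Usp6nl a GTPase-activating protein for Rab proteins, and Rbpj the DNA-binding factor of Notch signalling. With 6 points such closeness describes these libraries only. Among the 10 genes themselves, the closest profiles, named after their values were seen, were Smad4 with Skil at 0.0590 and Tgfbr2 with Smad3 at 0.124.

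A wider list of 84 genes of the pathway was divided by role, and 67 of them were abundant enough to test. None of the 67 passed an adjusted p-value of 0.05 in edgeR's quasi-likelihood test with the block. At an unadjusted p under 0.05 there were 6, 4 higher and 2 lower in CD38-positive cells, where 5.08% of all tested genes were past this p, 2.47% higher and 2.61% lower. The median log2 fold change was 0.08. DESeq2 called 1 gene, Ccn2.

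Genes for other ligands and for ligand release had 10 of 19 tested, 5 with positive and 5 with negative log2 fold changes. Tgfb2 had 5 reads in all 6 libraries together and was not tested. Ltbp1, which encodes a protein that holds latent TGF-beta in the matrix, had read counts of 38, 1 and 8 in the CD38-positive libraries and of 39, 30 and 23 in their partners. Its values were lower in all 3 pairs, with hardly any difference in pair 1, and the log2 fold change was -1.55 (edgeR adjusted p = 0.926). The transcripts highest per kilobase in this role were Nrros, which tethers latent TGF-beta on myeloid cells, at 59.2 CPM per kilobase and Inhba, an activin subunit, at 4.92. Their log2 fold changes were 0.10 and 0.18.

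Of 12 other receptors and co-receptors, 10 were tested, with a median log2 fold change of 0.04 and 0 at an unadjusted p under 0.05. Fkbp1a, whose product binds the type I receptor, and Eng, the co-receptor endoglin (overlapped by Fpgs, with 3436 reads), were highest per kilobase, at 130 and 58.0 CPM per kilobase. Both were above each of the 10 main genes on that scale. Of 25 other Smads and Smad regulators, 24 were tested, with a median of -0.04 and 0 at an unadjusted p under 0.05. Strap and Usp4 were highest there, at 136 and 47.9 CPM per kilobase, with log2 fold changes of 0.19 and 0.03.

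Among 28 genes known as targets of TGF-beta in various cell types, 23 were tested, with a median log2 fold change of 0.23. Positive values were found for 17, where 50.1% of all tested genes had them. Ccn2 lies above this median also at the bound given below, so its exact value does not enter the median. The median of the pairs was -0.07, 0.17 and 0.29. The list was not split by whether TGF-beta raises or lowers a gene, so these signs do not measure pathway activity. Ccn2, a matricellular protein gene, had read counts of 22, 19 and 33 in the CD38-positive libraries and of 0 in all 3 partners. With the partners set to 3 counts per library, the level in CD38-positive libraries was at least 7.97-fold higher (edgeR adjusted p = 0.0679; 4.26e-07 to 0.389 over its alternatives). Snai2, a transcription factor gene of mesenchymal cells, had 37, 1 and 30 reads against 10, 0 and 0 (log2 fold change 3.03, edgeR adjusted p = 0.888). The matrix gene Fn1 was at 16.6, 14.7 and 8.28 CPM against 10.1, 7.89 and 3.73 CPM, higher in 3 of 3 pairs (0.91, edgeR adjusted p = 0.888). The cell cycle inhibitor gene Cdkn1c was at 2.16, 2.72 and 7.78 CPM against 0.715, 2.001 and 4.46 CPM, also higher in 3 of 3 pairs (0.89, edgeR adjusted p = 0.926). In the opposite direction, the leucine zipper gene Tsc22d1 was at 193, 305 and 426 CPM against 285, 415 and 509 CPM, lower in 3 of 3 pairs (-0.42, edgeR unadjusted p = 0.0449, adjusted p = 0.926). The summed endothelial and stromal markers, of which Col1a1 and Col1a2 are also on the target list, ranged from 112 to 249 CPM in CD38-positive and from 110 to 190 CPM in CD38-negative libraries. Of the 9 tested, 7 had positive and 2 negative log2 fold changes, and none passed (smallest edgeR adjusted p = 0.125; 2 at an unadjusted p under 0.05, Sparc and Ramp2). Pecam1, Sparc and Ramp2 were higher in all 3 pairs, as were 13.2% of all tested genes, and Col1a1 was lower in all 3, without overlap. The part of such cells in the values of Ccn2, Snai2 and Fn1 was not tested. Genes on the opposite strand overlap Ccn2, Fn1 and Cdkn1c, with 7, 24 and 34 reads in all 6 libraries together. Tsc22d3, the target gene highest per kilobase at 177 CPM per kilobase, had -0.45, and Txnip, next at 134 and overlapped by an antisense gene with 7236 reads, had 0.10.

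**Figure D5:**
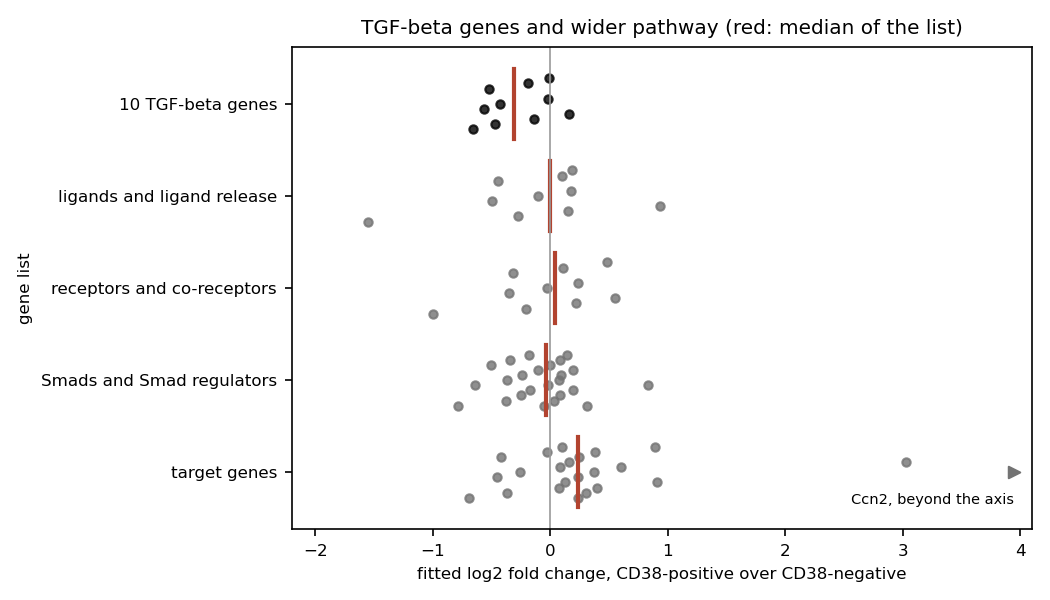
Fitted log2 fold changes, CD38-positive over CD38-negative, of the 10 TGF-beta genes and of the tested genes of 4 wider role lists, 1 point per gene with vertical scatter for legibility and a red line at the median. Medians are -0.31 for the 10 genes and -0.04 to 0.23 for the other lists; Ccn2 lies beyond the axis.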

How the data were processed

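The authors deposited raw read counts in 1 table per library, by Ensembl gene identifier and without a header. The submitters' processing notes name cutadapt, STAR, HTSeq 0.6.1p1 and the build GRCm38 (mm10); the strand setting and annotation release are not given in the sources used here, so reads of overlapping or antisense genes cannot be told apart. Symbols matched 49326 of 49585 identifiers; coordinates and transcript lengths came from GENCODE M21 (GRCm38), promoters from RefSeq.

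In R 4.3.3, edgeR 4.0.16 was used with filterByExpr, TMM scaling and the quasi-likelihood F-test over all 14785 genes, in a model of pair plus population, with Benjamini-Hochberg adjustment and a threshold of 0.05. Standard errors are the fold change divided by the square root of F. The design text gives the pairs; the correlation between partners, after subtracting the mean of each population, was 0.34, 0.12 and 0.24. The procedure was tested on simulated data for 14463 genes, with differences put only into genes averaging 20 or more counts. It called 52 of 100 genes given a 2-fold difference and 94 of 100 given a 4-fold one, 0 of them with the wrong sign. It also called 19 genes given no difference. The adjustment is stricter where fewer genes differ, and in the data only 2 of 14785 tested genes passed. Recovery in the data can therefore be lower than these shares, and a 2-fold difference between the populations could be missed. DESeq2 was 1.42.0.

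The 10 genes and the lists were chosen with earlier results of these data known. All 10 are named, with Cd38; from each role list up to 4 genes with the smallest unadjusted p under 0.05 and 1 direction in all 3 pairs, and up to 2 with the highest level; and the 3 profiles nearest to the gene with the smallest p. Sparc, Ramp2, Pecam1, Col1a1, Vwf, Tsc22d1, Cd34, Tgfb2 and the antibody genes were named after their values were seen. A further stem cell marker considered at the outset is not reported here.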

Additional observations from a re-analysis of the deposited data

How the results depend on the processing

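None of the 10 genes passed the adjusted threshold under any of the 9 alternatives, in which their smallest adjusted p-value was 0.471 (Smad3, edgeR without pair 3). Of 90 alternative values, 84 kept their direction and 6 changed sign, all without pair 2. With each pair left out in turn, log2 fold changes ranged from -0.24 to 0.23 for Skil, from -0.0040 to 0.24 for Smad2, from -0.92 to 0.015 for Smad3, from -0.23 to 0.20 for Smad4, from -0.50 to 0.31 for Smad7, from -0.86 to 0.013 for Tgfbr2, from -0.97 to -0.27 for Tgfbr1 and from -0.73 to -0.14 for Tgfbr3. Those of Tgfb1 ranged from -0.63 to -0.54 and those of Ski from -0.28 to -0.11. Without the replicate block Tgfbr1 was at -0.68 (edgeR adjusted p = 0.994), and the block changed no call among the 10. The count of all genes, 2, was 0 without the replicate block (417 at an unadjusted p under 0.05), 11 with DESeq2, 7 with DESeq2 size factors, 0 with unscaled totals (595), 80 with no filter, 13 with a mean of at least 10 counts and 2 to 41 without a pair. The wider list had 1 gene, Ccn2, with DESeq2, with DESeq2 size factors, with no filter, with a mean of at least 10 counts and without pair 2 or pair 3 (0 to 1 without a pair). The cause was not tested. Tgfb1, at 18 to 41 reads, is limited most by depth.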
